A study of Mus musculus with 42 samples.

Results

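The genes that move bile acids and dietary lipids were followed through mouse colon libraries: *Slc10a2*, *Fabp6*, *Slc51a*, *Slc51b*, *Nr1h4*, *Fabp1*, *Fabp2*, *Apoa1*, *Apoa4* and *Abca12*. They were taken by symbol, and these 10 are part of the 20456 genes listed in at least 1 of the study's 9 expression tables. All 10 were listed in the table of WT crypts, whereas *Apoa4* was missing from 6 of the other 8 tables and *Fabp1* from 1.

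RNA sequencing was performed on colon crypts and colon tumors of mice on a C57/BL6 background, all at least 8 weeks old, in 42 libraries under 14 conditions. MTG16 is a transcriptional corepressor that binds E proteins, the basic helix-loop-helix factors that recognize E boxes. One colony compared Mtg16-null mice with WT littermates, and a separate colony compared WT littermates with homozygous P209T (T/T) mice, whose point mutation weakens the binding of MTG16 to E proteins. Each crypt library was an epithelial isolate released with EDTA from a 5 cm stretch of colon, taken beside the cecum (proximal) or beside the anus (distal). Both alleles were germline alleles, so cells other than epithelium carried them too.

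At baseline, untreated proximal crypts gave 2 libraries each from Mtg16-null mice, their WT littermates, P209T mice and their WT littermates. Untreated distal crypts gave 4 libraries from Mtg16-null mice and 4 from their WT littermates, and 4 from P209T mice and 3 from their WT littermates. In the injury experiment, mice drank 2% dextran sodium sulfate (DSS), which injures the colon epithelium, for 5 days and water for 4 days, and distal crypts gave 4 Mtg16-null and 3 WT libraries in one colony and 3 P209T and 3 WT libraries in the other. In the tumor experiment, mice received the carcinogen azoxymethane (AOM) at 10 mg/kg and 3 cycles of 3% DSS, each of 4 days with 16 days of water, and distal tumors gave 3 P209T and 3 WT libraries. Tumors were taken whole, so their RNA is not from epithelium alone.

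Bile acids that reach the end of the small intestine are taken up at the apical membrane of enterocytes by ASBT, the product of *Slc10a2*. Inside the cell they are bound by the ileal bile acid binding protein (*Fabp6*), and they leave through the basolateral transporter formed by OSTα and OSTβ, the products of *Slc51a* and *Slc51b*, which work only as a pair. The bile acid receptor FXR (*Nr1h4*) senses them and drives transcription of *Fabp6*, *Slc51a* and *Slc51b*. Fatty acids in enterocytes are bound by FABP1 and FABP2, and absorbed fat is exported on lipoproteins that carry the apolipoproteins APOA1 and APOA4. ABCA12 moves glucosylceramide and is best known from the lipid barrier of the skin. In the gut, *Fabp1*, *Fabp6*, *Apoa1* and *Apoa4* are textbook genes of the small intestine rather than of the colon.

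*Slc51a*, *Slc10a2*, *Fabp2* and *Abca12* differed more than 10-fold between the segments of the WT colon. The direction of *Fabp6* there depended on the colony and the tool. The sequence upstream of these 5 is therefore shown. Each line holds the 250 bases before the RefSeq start site of the gene, 5′ to 3′ on the strand of the gene, in GRCm38.p6. *Slc51a* lies at chr16:32487880-32488129 (minus strand), *Slc10a2* at chr8:5105288-5105537 (minus), *Fabp2* at chr3:122894822-122895071 (plus), *Abca12* at chr1:71414911-71415160 (minus) and *Fabp6* at chr11:43601563-43601812 (minus). Capitals mark the E box (CANNTG), the nuclear receptor half-site (AGGTCA), the CDX motif (TTTATG) and the HNF1 motif (GTTAAT), on either strand.
Slc51a: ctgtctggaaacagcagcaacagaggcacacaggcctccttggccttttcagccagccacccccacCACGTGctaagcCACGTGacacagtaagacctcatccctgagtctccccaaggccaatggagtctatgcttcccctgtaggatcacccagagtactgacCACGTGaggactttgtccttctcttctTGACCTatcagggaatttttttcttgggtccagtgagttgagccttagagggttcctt
Slc10a2: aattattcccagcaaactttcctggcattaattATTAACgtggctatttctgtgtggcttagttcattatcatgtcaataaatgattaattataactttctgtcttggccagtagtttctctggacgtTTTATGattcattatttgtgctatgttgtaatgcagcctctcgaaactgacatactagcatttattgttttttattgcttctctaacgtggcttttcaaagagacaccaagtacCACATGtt
Fabp2: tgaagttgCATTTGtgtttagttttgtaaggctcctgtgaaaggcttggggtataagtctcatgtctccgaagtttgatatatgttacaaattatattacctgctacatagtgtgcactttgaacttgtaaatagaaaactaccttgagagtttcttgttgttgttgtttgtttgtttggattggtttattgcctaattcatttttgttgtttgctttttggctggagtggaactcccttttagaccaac
Abca12: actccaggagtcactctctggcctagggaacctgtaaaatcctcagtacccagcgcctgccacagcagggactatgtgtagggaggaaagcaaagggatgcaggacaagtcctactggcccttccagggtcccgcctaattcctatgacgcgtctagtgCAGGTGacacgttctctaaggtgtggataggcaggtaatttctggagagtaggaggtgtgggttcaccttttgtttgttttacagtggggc
Fabp6: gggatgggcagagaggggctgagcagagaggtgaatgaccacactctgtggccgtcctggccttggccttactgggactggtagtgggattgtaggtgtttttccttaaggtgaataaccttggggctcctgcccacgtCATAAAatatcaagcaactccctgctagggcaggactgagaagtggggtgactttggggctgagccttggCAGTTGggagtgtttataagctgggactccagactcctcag
The *Slc51a* line held 3 copies of the E box form CACGTG, with first bases at positions −184, −172 and −85 from the start site, and a half-site at −58. *Slc10a2* and *Fabp6* each held a CDX motif, and *Slc10a2* also an HNF1 motif. *Fabp2* and *Abca12* held none of these marks other than 1 E box each. Over the full 300 bases of each RefSeq promoter (250 before and 50 after the start), an E box was found in 10 of the 10 genes and in 72.3% of 32851 mouse promoters. The half-site was found in 4 of 10 genes and 16.3% of all promoters, the CDX motif in 4 and 11.9%, and the HNF1 motif in 3 and 7.10%. The GATA motif AGATAA was found in 2 of 10 and in 11.2% of all promoters, and the HNF4 motif CAAAGTCCA in 0 of 10 and in 0.475%. None of the 10 held the inverted repeat of the half-site with 1 base between the copies, which 0.009% of all promoters held. These matches are descriptions of the sequence only.

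Values are normalized counts unless stated, that is, reads assigned to a gene divided by the size factor of its library within a table, and fold changes and adjusted p-values come from limma on log2 (normalized count + 1) over all genes of a table with a mean of at least 10. The 38 libraries whose recovered reads were used held 32231389 to 74661922 reads. Transcripts of *Cbfa2t3*, which encodes MTG16, ranged from 630.6 to 1057 in Mtg16-null proximal libraries against 1634 to 3221 in WT. In distal crypts they ranged from 424.4 to 1095 against 1027 to 1809, and after DSS from 427.0 to 595.5 against 1845 to 2519. P209T mice keep the transcript, so this check does not apply to them. Its level ranged from 2529 to 2988 in P209T against 2034 to 2049 in WT proximal libraries, and from 1509 to 2196 against 937.4 to 1040 in distal crypts. After DSS it ranged from 2956 to 3125 in P209T against 2244 to 3126 in WT libraries, and in tumors from 1641 to 1931 against 1115 to 1475. All 8 epithelial markers were above 0 in every library. The replicate libraries are described as from littermate-matched mice, and whether each came from 1 mouse is not given in the sources used here.

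A pair of libraries stood apart, and the results of the 10 genes that rest on them are given with and without them. The first was WT proximal replicate 2 of the P209T colony. It held transcripts of all 16 Paneth cell markers measured, against 3 to 4 in the other WT proximal libraries, and their summed level was 86.3 CPM (normalized counts scaled to a library sum of 1000000) against 19.1 to 29.9. Paneth cells are found in the small intestine and not in the normal colon. Of these markers *Defa24* reached 11.1 CPM and was at 0 in the other 35 crypt libraries, and *Lyz1* reached 14.2 CPM against at most 6.39. Of 19 small intestinal enterocyte markers, 7 were higher in this library than in any other crypt library and 12 were not. Of the 7, *Sis* (sucrase-isomaltase) reached 23.9 CPM against at most 6.40 and *Anpep* 131.7 CPM against at most 13.3, while the sum over the 19 was 2320 CPM against 1546 to 2205 in the other WT proximal libraries. This library is called ileal-marked below.

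The second was Mtg16-null distal replicate 2. Of 279 genes other than these 10 that differed at least 16-fold between WT segments without overlap, 263 lay on the proximal side of the midpoint in this library. In the other 7 distal libraries of mutant mice at baseline the number was 0 to 4, and in the 4 proximal libraries of mutant mice it was 270 to 274. The WT libraries chose these genes, so their own counts are no reference. The library labelled Mtg16-null distal replicate 2 thus goes against its label, and its *Cbfa2t3* value was 1095, the highest of the 4 Mtg16-null distal libraries.

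Proximal and distal crypts of WT mice were compared to learn how far the colon differs along its length. Of the 8 genes that could be tested, 6 were lower in distal crypts and none was higher, where 22.0% of the 13841 genes tested were lower and 20.1% were higher. Their median log2 fold change was −3.28, and that of all genes tested was 0.005. *Slc51a*, *Slc10a2*, *Fabp2* and *Abca12* fell by more than 10-fold and *Slc51b* and *Nr1h4* by more than 2-fold, and none of the 6 overlapped between the segments. Among all genes tested, 15.9% had every distal library below every proximal one. Within the library number prefix 4149 (2 against 2 libraries), the only prefix that holds WT crypts of both segments, the log2 fold changes of these 6 ran from −10.06 to −1.15 with adjusted p-values of at most 0.0341 by limma.

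**Figure D1:**
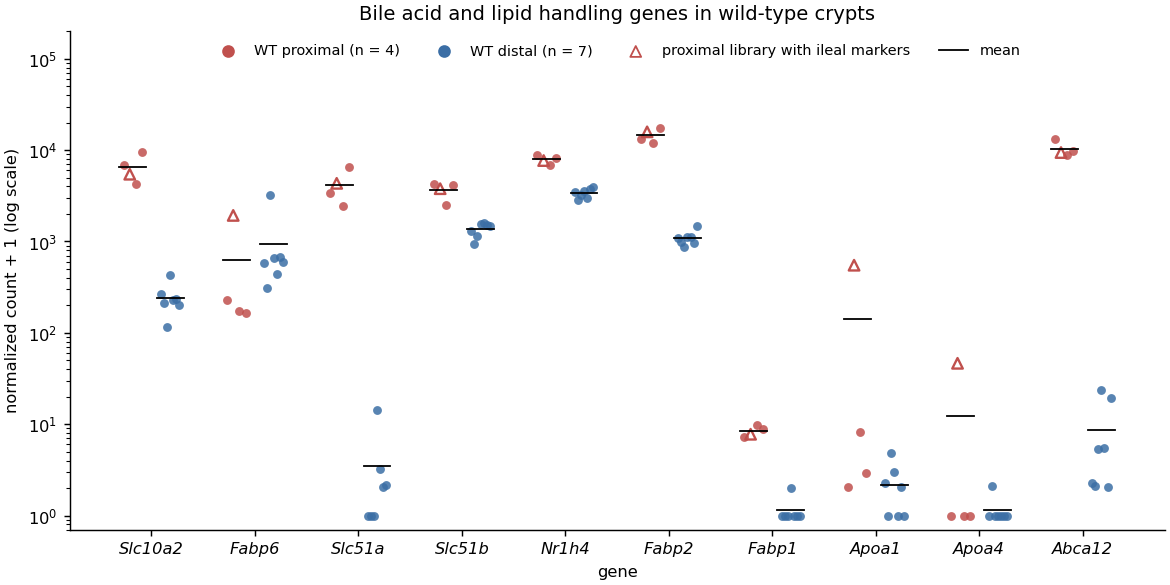
Normalized counts + 1 (log scale) of the 10 genes in each WT crypt library at baseline, proximal in red and distal in blue, with the mean as a line and the ileal-marked proximal library as a triangle. *Slc10a2*, *Slc51a*, *Slc51b*, *Nr1h4*, *Fabp2*, *Fabp1* and *Abca12* do not overlap between the segments, and *Apoa1* and *Apoa4* stand out in the triangle only.

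Apical uptake came first. *Slc10a2* (chromosome 8, 5083219 to 5105351) measured 6865, 5445, 4272 and 9513 in the 4 proximal libraries and 113 to 425 in the 7 distal libraries (median 226). Every proximal library was at least 10 times above every distal one. The log2 fold change was −4.79 ± 0.29 (SE), a 27.8-fold difference (adjusted p = 1.46e-08, limma). Across the alternatives the log2 value lay between −4.98 and −4.59. Within 1 segment the proximal libraries still varied by 2257 (SD) around a mean of 6524.

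The basolateral pair did not move alike. *Slc51a* (chromosome 16, 32474504 to 32487879) measured 3424, 4326, 2469 and 6543 in proximal libraries and 0 to 13.2 in distal libraries (median 1.05), with 3 of the 7 distal libraries at 0. The reads summed to 17639 in proximal and 17 in distal libraries, a ratio of CPM of 1636 with an exact 95% counting interval of 1022 to 2810. On the log2 scale *Slc51a* differed by −10.85 ± 0.63 (adjusted p = 1.14e-08, limma), or by −12.58 with a pseudocount of 0.1. *Slc51b* (chromosome 9, 65412714 to 65422955), the partner, measured 4281, 3782, 2485 and 4169 in proximal libraries and 945 to 1608 in distal libraries (median 1488). It fell by 1.42 ± 0.17 on the log2 scale, or 2.68-fold (adjusted p = 1.21e-05, limma).

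Per kilobase of the longest annotated transcript, the CPM of *Slc51b* was 2.35 to 4.62 times that of *Slc51a* in the 4 WT proximal libraries. It was 432.6 to 5328 times in the 4 WT distal libraries with any *Slc51a* read. WT distal crypts thus held *Slc51b* at 21.4 to 38.1 CPM beside *Slc51a* at 0.283 CPM or less. The 3′ end of *Slc51a* overlaps *Pcyt1a* on the opposite strand and *Slc51b* overlaps *Rasl12*, and the library kit does not mark strand, so reads of the shared bases cannot be told apart. The highest level in any library was 122.7 CPM for *Pcyt1a* and 6.82 CPM for *Rasl12*.

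The receptor followed the transporters to a smaller extent. *Nr1h4* (chromosome 10, 89454234 to 89533585) measured 8947, 7688, 6927 and 8167 in proximal libraries and 2851 to 3905 in distal libraries (median 3443). *Nr1h4* fell by 1.23 ± 0.093 on the log2 scale, or 2.34-fold (adjusted p = 1.61e-07, limma). Its spread was small in both segments, at 847.6 around 7932 in proximal and 379.4 around 3389 in distal libraries (SD).

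The binding protein *Fabp6* (chromosome 11, 43596049 to 43601540) was not called with all libraries, and its direction depended on the libraries and the tool. It measured 231, 1927, 173 and 165 in proximal libraries, of which 1927 is the ileal-marked one, and 588, 310, 3229, 653, 439, 675 and 592 in distal libraries. With all libraries the segments overlapped (log2 fold change 1.02 ± 0.68, adjusted p = 0.255, limma), and DESeq2 on recovered reads gave −0.218. Without the ileal-marked library every distal value lay above every proximal one (log2 fold change 1.86 ± 0.52, adjusted p = 0.0141, limma). In that fit 19.5% of genes were lower and 18.3% higher in distal crypts, and *Fabp6* was the only one of the 7 genes tested that was higher. On the unlogged mean, the exact permutation test (two-sided) had p = 0.73 with all libraries and p = 0.283 without the ileal-marked one.

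That distal library, WT replicate 3 of the Mtg16-null colony, had the highest *Fabp6* of all 42 libraries (74.4 CPM, next 48.3 CPM in Mtg16-null distal replicate 3). It held 9.10 CPM of summed Paneth markers, with 6 of 16 above 0 and 4.45 CPM of *Lyz1*, against 2.69 to 4.09 CPM and 4 of 16 in the other 3 libraries of its group, and the part of this in its *Fabp6* was not tested. Within prefix 4149, which holds this library, *Fabp6* differed by 3.10 ± 0.70 (adjusted p = 0.0377, limma). Within the Mtg16-null colony it differed by 2.22 ± 0.78 (adjusted p = 0.0741, limma), and within the P209T colony, which holds the ileal-marked library, by −0.25 ± 0.76 (adjusted p = 0.834, limma).

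*Fabp2*, the intestinal fatty acid binding protein (chromosome 3, 122895072 to 122899506), measured 13296, 15844, 11834 and 17451 in proximal libraries and 877 to 1462 in distal libraries (median 1100). *Fabp2* fell by 3.74 ± 0.13 on the log2 scale, or 13.4-fold (adjusted p = 1.05e-10, limma). Its relative *Fabp1*, the liver form (chromosome 6, 71199827 to 71205023), stayed near the detection limit and under the filter for testing. It measured 6.20 to 8.76 in the 4 proximal libraries, 1.02 in 1 distal library and 0 in the other 6. These values rest on 32 reads in proximal and 1 read in distal libraries, a ratio of 50.5 with an exact 95% counting interval of 8.43 to 2055. The exact permutation test (two-sided) of the mean had p = 0.00303, the smallest that 4 against 7 libraries allow, and p = 0.00833 without the ileal-marked library. *Fabp1* measured 6.76 in the ileal-marked library, within the range of the other 3.

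The apolipoproteins reached substantial levels in 1 library. *Apoa1* (chromosome 9, 46228580 to 46230466), the main protein of high-density lipoprotein, measured 548.8 in the ileal-marked library and 1.03, 7.17 and 1.94 in the other proximal libraries, against 0 to 3.78 in distal libraries. *Apoa4* (chromosome 9, 46240696 to 46243459) measured 45.4 in the ileal-marked library, 0 in the other 3 proximal libraries, and 1.13 in 1 distal library with 0 in the other 6. *Apoa1* passed the filter only through the ileal-marked library, and its log2 fold change was −2.81 ± 1.22 (adjusted p = 0.0809, limma). In the exact permutation test (two-sided) of the mean, *Apoa1* had p = 0.0455 with that library and p = 0.133 without it, and *Apoa4* p = 0.364 with it and p = 1.0 without it. Over all 42 libraries the next highest *Apoa1* was 0.253 CPM against 12.1 CPM in the ileal-marked library.

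*Abca12* (chromosome 1, 71242276 to 71414910) showed the widest gap beside *Slc51a*. It measured 13303, 9407, 8888 and 9744 in proximal libraries and 1.05 to 22.4 in distal libraries (median 4.41). The reads summed to 43814 in proximal and 52 in distal libraries, a ratio of CPM of 1329 with an exact 95% counting interval of 1013 to 1779. On the log2 scale *Abca12* differed by −10.89 ± 0.64 (adjusted p = 1.33e-08, limma). Intervals on reads cover counting error only.

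The genes most alike over the 11 WT libraries, by Pearson's r of log2 values, were sought among non-members with a mean of at least 100. These r values are descriptions, since all 11 libraries share the step between segments. *Slc10a2* was nearest to *Mettl7b* (r = 0.992), *Tmigd1* (0.992) and *Hkdc1* (0.992), and *Slc51a* to *Sgpp1* (0.997), *Pparg* (0.995) and *B3gnt6* (0.994). *Fabp2* was nearest to *Slc8a1* (0.996), *Bdh1* (0.996) and *Prpsap1* (0.996), and *Abca12* to *1810065E05Rik* (0.996), *Elovl6* (0.995) and *Fam78a* (0.994). *Slc51b* was nearest to *Mier3* (0.989), *Srxn1* (0.987) and *Bmi1* (0.986), and *Nr1h4* to *Snx13* (0.990), *Fgl2* (0.989) and *Vdac3* (0.988). *Apoa1* was nearest to the enterocyte peptidase *Anpep* (0.932), then *Ccl25* (0.891), and *Fabp6* to *Znhit6* (0.881), *Trim44* (0.818) and *Lyz1* (0.817). Without the ileal-marked library, the r of *Apoa1* was 0.2825 with *Anpep* and 0.734 with *Ccl25*, and that of *Fabp6* was 0.855, 0.882 and 0.764 in the order above. The r values named for the other 6 genes were then 0.9836 or more.

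The pathways around these genes were divided rather than uniformly lower. Some of the 10 genes are also members of the lists that follow, and each count is to be read against the 22.0% of all genes that were lower and the 20.1% that were higher. Of 22 tested genes of bile acid transport and sensing, 11 were lower and 4 were higher in WT distal crypts, and 7 were not called, while without the ileal-marked library 10 were lower and 6 were higher. Beside *Slc51a* and *Slc10a2*, the organic anion carrier *Slco2b1* fell from 791.3 ± 119.7 (SD, n = 4) to 210.3 ± 46.6 (n = 7). The β-Klotho coreceptor *Klb* rose from 35.6 ± 9.18 to 263.5 ± 80.2, the exporter *Abcc4* from 496.8 ± 71.6 to 1365 ± 135.7 and the sterol 27-hydroxylase *Cyp27a1* from 433.1 ± 103.3 to 762.0 ± 166.5. The adjusted p-values of these 4 were between 6.01e-08 and 0.00387 by limma.

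In the list of fatty acid uptake and binding, 6 of 15 tested genes were lower and 5 were higher, against 22.0% and 20.1% of all genes. *Fabp5*, the epidermal form, fell from 684.9 ± 15.2 to 168.0 ± 35.6 and the fatty acid transporter *Slc27a4* from 6526 ± 1149 to 2590 ± 376.6, while *Acsl1*, *Scarb1* and *Acsl3* had log2 fold changes of 0.54, 0.46 and 0.38, all called. In triglyceride synthesis and chylomicron assembly, 10 of 28 were lower and 7 were higher. The acyltransferase *Gpat3* fell from 723.3 ± 98.3 to 52.2 ± 27.8, *Pla2g12b* from 474.7 ± 129.0 to 69.8 ± 26.5 and the lipid droplet gene *Cidec* from 318.0 ± 102.9 to 58.0 ± 24.7. The log2 fold changes of *Apoc2*, *Apobec1*, which edits apolipoprotein B RNA, and *Tm6sf2* were 2.38, 1.04 and 1.00.

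Sterol genes went mostly the other way, with 13 of 24 higher and 2 lower. Both subunits of the sterol exporter rose, *Abcg5* from 95.1 ± 89.5 to 1117 ± 277.7 and *Abcg8* from 70.2 ± 87.8 to 406.7 ± 82.4, and the cholesterol exporter *Abca1* from 99.1 ± 41.5 to 277.6 ± 110.9, while *Soat2*, which esterifies cholesterol, fell from 186.5 ± 44.6 to 85.5 ± 12.1. The ileal-marked library held the highest proximal values of *Abcg5* (225.1) and *Abcg8* (201.0), and without it the proximal means were 51.8 ± 27.1 and 26.6 ± 13.3 (SD, n = 3). The log2 fold changes then moved from 3.93 to 4.49 for *Abcg5* and from 3.22 to 3.97 for *Abcg8*. Every other list gene named here, *Bcl6* apart, was called in the same direction without that library. Within the ABCA family 8 genes were tested, of which *Abca13* and *Abca1* were among 3 higher and *Abca12* among 2 lower. Without the ileal-marked library the lower and higher counts were 6 and 6 of 15 for fatty acid uptake, 9 and 8 of 27 for triglyceride and chylomicron genes and 2 and 12 of 24 for sterol genes, and 2 and 3 of 8 for the ABCA family. The median log2 fold changes of the 7 lists ran from −0.46 to 0.32, against 0.005 for all genes.

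Fatty acid oxidation and ketogenesis had 21 of 26 genes lower, 5 not called and none higher. *Acaa1b*, a peroxisomal thiolase, fell from 637.3 ± 230.5 to 4.67 ± 3.22 and *Pdk4* from 482.4 ± 128.2 to 18.5 ± 19.5. Among 24 regulators of intestinal lipid genes, 11 were lower, and 6 were higher, a share near the 20.1% of all genes. *Cdx2*, a homeobox factor of the intestine, fell from 17840 ± 2106 to 3394 ± 770.4, *Maf* from 984.5 ± 355.2 to 131.9 ± 60.3 and *Pparg* from 5972 ± 253.7 to 2045 ± 369.5. The log2 fold changes of *Ppargc1a*, the oxysterol receptor *Nr1h3* and *Bcl6* were 1.21, 0.83 and 0.36, and *Bcl6* was not called without the ileal-marked library (adjusted p = 0.0959, limma). Without that library 20 of 26 genes of fatty acid oxidation were lower and none was higher, and 11 of 24 regulators were lower and 5 higher. Markers moved with the segments too. Of 12 marker lists, the summed level of 5 was lower and of 3 was higher in WT distal libraries without overlap. The sum of 12 colonocyte markers ran from 15221 to 19574 CPM in WT proximal and from 4454 to 6727 CPM in WT distal libraries, and T cell markers from 39.8 to 59.3 against 5.52 to 21.4 CPM. Myeloid markers ran from 44.3 to 65.0 against 12.97 to 27.8 CPM and adipocyte markers from 5.31 to 9.99 against 0.711 to 2.51 CPM. The adipocyte list includes *Cidec*, whose fall from 318.0 ± 102.9 to 58.0 ± 24.7 in normalized counts is given above. Higher in distal libraries were epithelial markers, at 19689 to 21496 against 16747 to 18754 CPM, hepatocyte markers, at 23.5 to 45.1 against 2.27 to 3.12 CPM, and smooth muscle markers, at 1.835 to 4.495 against 0.823 to 1.71 CPM. Of 9 hepatocyte markers, 4 to 5 were above 0 in distal and 4 to 6 in proximal libraries, so the higher sum did not come with more of them present. The part of all these markers in these differences was not tested, and fewer cells of a type cannot be told apart from less RNA per cell in bulk libraries.

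**Figure D2:**
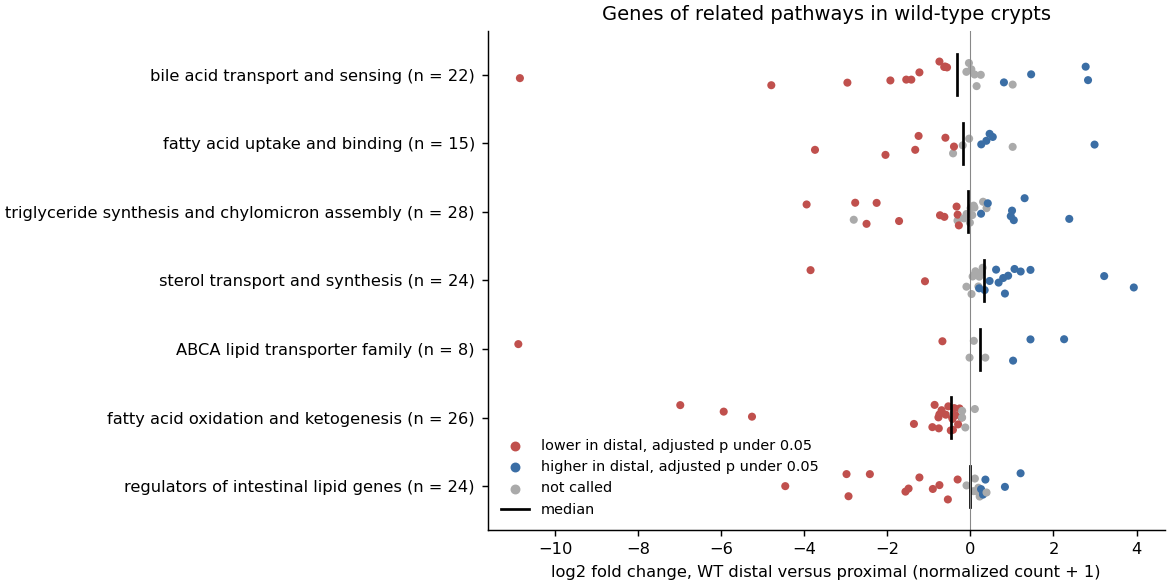
Log2 fold changes (normalized count + 1) of the tested genes of 7 lists in WT distal against proximal crypts, 1 point a gene, red where lower in distal, blue where higher and grey where not called, with the median of each list as a black line. Fatty acid oxidation and ketogenesis has 21 red points and no blue ones, and sterol transport and synthesis has 13 blue and 2 red points.

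Mutant mice kept the step between the segments. In CPM, which sets libraries of different tables side by side and was not tested across them, *Slc51a* was 78.0 to 113.9 in Mtg16-null proximal and 0.0649 to 0.253 in the 3 other Mtg16-null distal libraries, and 87.4 to 116.4 in P209T proximal against 0 to 0.0494 in P209T distal libraries. *Slc51b*, *Slc10a2*, *Fabp2*, *Nr1h4* and *Abca12* likewise did not overlap between the segments in either mutant once Mtg16-null distal replicate 2 was set aside. Among all genes with a mean of at least 0.2 CPM, 21.1% had every distal library below every proximal one in Mtg16-null and 19.3% in P209T mice. *Fabp6* was higher in distal libraries in both mutants, at 16.2 to 48.3 against 8.23 to 8.29 CPM in Mtg16-null and 8.67 to 30.3 against 4.60 to 5.88 CPM in P209T libraries. No proximal mutant library was ileal-marked, their summed Paneth markers being 7.65 to 13.2 CPM in Mtg16-null and 7.67 to 10.7 CPM in P209T libraries.

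In proximal crypts, Mtg16-null and WT libraries were compared at 2 against 2. None of the 7 genes tested was called by limma, against 0.0645% of all genes, and 1 had an unadjusted p under 0.05, against 5.96% of all genes. This was *Fabp6*, at 401.4 and 407.2 in Mtg16-null and 186.4 and 175.7 in WT libraries. The groups did not overlap for 3 of the 7 genes, namely *Fabp6*, *Slc51b* and *Nr1h4*, and the share of all genes without overlap was not counted. The log2 fold change of *Fabp6* was 1.16 ± 0.20 (unadjusted p = 0.000878, adjusted p = 0.227, limma). The log2 fold changes of the other 6 lay between −0.42 (*Slc10a2*) and 0.39 (*Slc51b*). P209T and WT proximal libraries gave none of 9 called by limma, against 0.232% of all genes. *Fabp2* was the 1 gene of 9 with an unadjusted p under 0.05, against 12.0% of all genes, at 19241 and 18942 in P209T and 12925 and 15241 in WT libraries (log2 fold change 0.44 ± 0.10, adjusted p = 0.204 by limma).

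In the P209T proximal table the ileal-marked library is 1 of the 2 WT libraries, and it set 3 values. *Fabp6* measured 224.2 and 1854 in WT and 203.1 and 264.6 in P209T libraries, a log2 fold change of −1.47 ± 0.87 that became 0.05 ± 0.27 without it. *Apoa1* (527.9 in it, 1.01 to 8.46 elsewhere) and *Apoa4* (43.7 in it, 0 elsewhere) were no longer testable without it, both being under the filter.

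In distal crypts, the library labelled Mtg16-null distal replicate 2 set the large values. *Slc51a* measured 11.6, 4564, 2.84 and 4.09 in Mtg16-null and 0, 0, 0 and 13.5 in WT libraries. *Abca12* measured 22.0, 9746, 1.89 and 8.99 against 1.31, 1.16, 4.54 and 22.9, and *Slc10a2* 849.5, 6957, 203.7 and 382 against 274.0, 214.2, 116.6 and 434.3. *Fabp2* was 15755 in it and 842.1 to 1191 in the other 3, and *Fabp6* 112.0 in it and 744.1 to 2117 in the others. For *Fabp6* this lay below the WT proximal libraries of that colony (175.7 and 186.4), and for the other genes the value was near the proximal level of WT mice.

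With all 8 libraries none of the 7 genes tested was called by limma (none with an unadjusted p under 0.05, against 4.63% of all genes, and 0 by edgeR and by DESeq2), against 0.239% of all genes. The log2 fold changes reached 4.06 ± 2.19 for *Slc51a* and 3.32 ± 2.29 for *Abca12*. Without replicate 2 none of the 5 genes still tested was called, against 1.04% of all genes, and the values were 0.79 ± 0.53 for *Slc10a2*, 0.58 ± 0.70 for *Fabp6*, 0.12 ± 0.23 for *Slc51b*, −0.09 ± 0.14 for *Fabp2* and −0.12 ± 0.09 for *Nr1h4*. *Slc51a* and *Abca12* then fell under the filter. For *Fabp2*, *Nr1h4* and *Fabp6* the sign turned with this 1 library, their values with all 8 libraries being 0.91 ± 0.84, 0.24 ± 0.31 and −0.27 ± 0.97.

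**Figure D3:**
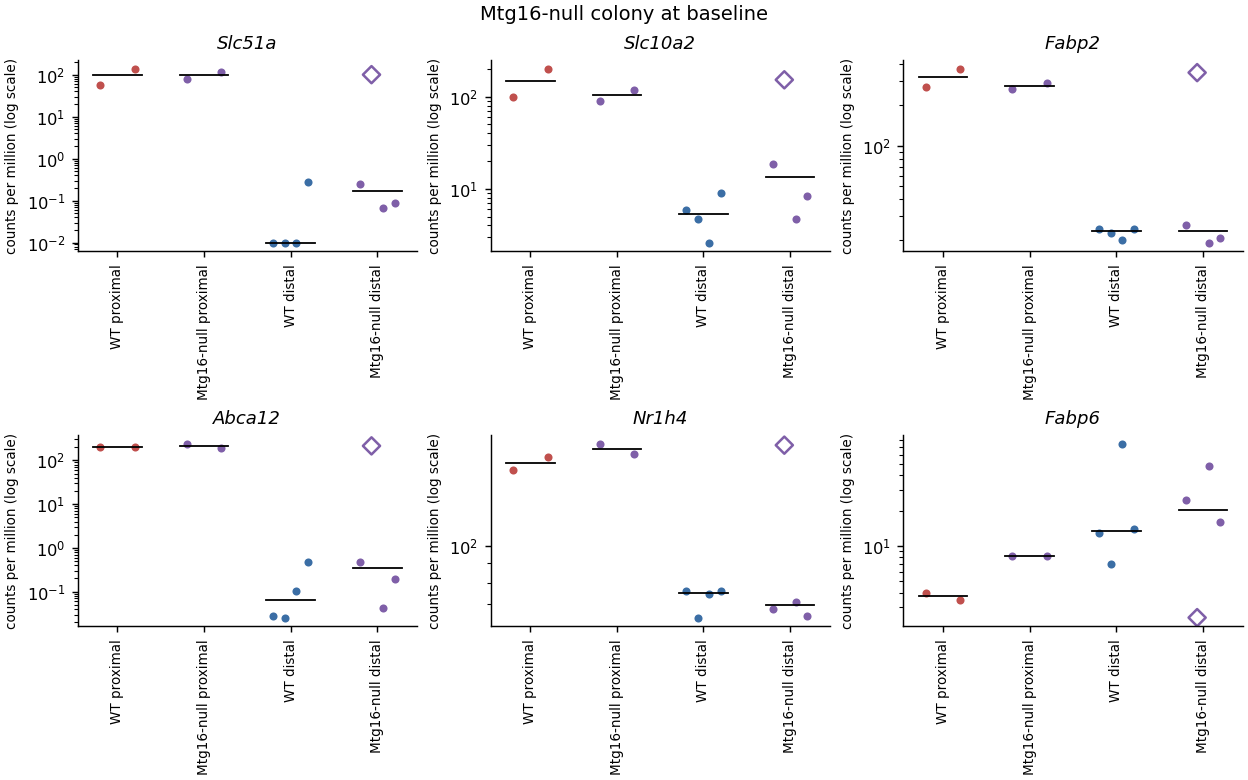
CPM (log scale) of 6 genes in the Mtg16-null colony at baseline, 1 point a library, with the median as a line and Mtg16-null distal replicate 2 as a diamond; values under 0.01 CPM are drawn at 0.01. In each panel the diamond lies with or beyond the proximal libraries and apart from the other 3 Mtg16-null distal libraries.

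P209T distal crypts gave none of 6 genes called by limma, against 0.0369% of all genes, and 0 by edgeR and by DESeq2. *Slc10a2* was the 1 gene of 6 with an unadjusted p under 0.05, against 4.65% of all genes. It measured 60.1, 85.7, 156.3 and 146.9 in P209T and 211.9, 218.5 and 184.2 in WT libraries. The groups did not overlap, which was not counted over all genes, and the log2 fold change was −0.96 ± 0.34 (adjusted p = 0.863, limma). The other 5 lay between −0.22 (*Slc51b*) and 0.66 (*Abca12*).

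After DSS and recovery, WT crypts of the P209T colony were compared with untreated WT crypts of that colony. Of 6 genes tested 2 were lower and none was higher, against 35.6% of all genes called in either direction. An unadjusted p under 0.05 by limma was held by 3 of the 6, against 50.3% of all genes. *Slc10a2* measured 246.2, 250.7 and 212.8 at baseline and 22.1, 16.5 and 89.8 after DSS. It fell by 2.83 ± 0.60 on the log2 scale, or 7.13-fold (adjusted p = 0.0183, limma). *Nr1h4* measured 3284, 3996 and 4161 at baseline and 2788, 2265 and 2656 after DSS, and fell by 0.57 ± 0.14 (adjusted p = 0.0269, limma). The value of *Slc10a2* moved between −3.56, without DSS replicate 3, and −2.37, without DSS replicate 2. Leaving out any of the 3 baseline libraries or DSS replicate 1 lost both calls, leaving out DSS replicate 2 lost that of *Nr1h4*, and leaving out DSS replicate 3 kept both, with 0 to 4 genes called over these 6 fits. Calls over all genes also moved widely between these fits, as given at the end, so the lost and gained calls are not particular to these genes. With the replicate number as a block, *Nr1h4* was not called (adjusted p = 0.0718, limma).

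*Abca12* measured 4.85, 1.12 and 19.7 at baseline and 34.4, 41.3 and 15.5 after DSS (log2 fold change 2.20 ± 0.85, unadjusted p = 0.0377, adjusted p = 0.0814 by limma). With single libraries left out, the log2 value of *Abca12* ran from 1.405 to 3.047. *Slc51a*, under the filter, measured 2.43, 1.12 and 1.23 at baseline and 7.14, 9.30 and 6.53 after DSS. *Fabp6*, *Fabp2* and *Slc51b* had log2 fold changes of 0.25, 0.29 and −0.36. The percentage of genes called shows that a large part of the transcriptome differed between these libraries, which also carry different library number prefixes (5094 and 5740), so that DSS and the prefix cannot be told apart. Of 12 marker lists, 4 were lower and 3 were higher in summed level after DSS without overlap. Small intestinal enterocyte markers ran from 863 to 1342 CPM after DSS against 1690 to 1759 CPM, plasma and B cell markers from 4.15 to 7.80 against 9.10 to 18.1 CPM, T cell markers from 7.45 to 7.96 against 8.23 to 20.9 CPM and endothelial markers from 2.42 to 2.89 against 4.73 to 5.87 CPM. Epithelial markers ran from 22739 to 30584 CPM against 19689 to 21496 CPM, hepatocyte markers from 34.2 to 39.7 against 23.5 to 27.9 CPM and fibroblast markers from 2.97 to 7.34 against 0.947 to 2.38 CPM. Their part in these differences was not tested.

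Mtg16-null and WT distal crypts were then compared after DSS, to ask whether loss of MTG16 alters recovery. Of 7 genes tested, 5 had an unadjusted p under 0.05 by limma, against 12.4% of all genes. *Fabp6* was the 1 gene of 7 called by limma, against 0.629% of all genes. It measured 254.5, 217.2, 258.7 and 373.6 in Mtg16-null and 751.4, 578.3 and 817.9 in WT libraries. Every Mtg16-null library lay below every WT library, though the share of all genes without overlap was not counted. *Fabp6* fell by 1.39 ± 0.23 on the log2 scale, or 2.61-fold (adjusted p = 0.035, limma). The value stayed between −1.54 and −1.28 with any library left out, but 6 of the 7 such fits lost the call (adjusted p of up to 0.122, limma), the exception being the fit without Mtg16-null replicate 4.

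Other genes were higher in the Mtg16-null mean without being called. *Abca12* measured 277.4, 269.6, 440.3 and 174.7 against 81.1, 111.4 and 75.7 (log2 fold change 1.63 ± 0.32, adjusted p = 0.058 by limma), and *Fabp2* 2001, 2721, 2631 and 2273 against 777.3, 1113 and 1696 (1.07 ± 0.25, adjusted p = 0.0899 by limma). *Slc10a2* measured 228.0, 411.4, 379.4 and 172.6 against 85.4, 223.7 and 150.4 (0.97 ± 0.40, adjusted p = 0.351 by limma). *Slc51a* gave 20.51, 12.9, 18.2 and 8.42 against 6.49, 7.82 and 4.56 (1.09 ± 0.48, adjusted p = 0.39 by limma), again without overlap. Same-numbered libraries deviated together in this table, and with the replicate block 4 of 7 genes were called, against 8.74% of all genes. They were *Fabp6* (−1.54 ± 0.15, adjusted p = 0.000812), *Abca12* (1.85 ± 0.26, adjusted p = 0.00362), *Fabp2* (1.10 ± 0.15, adjusted p = 0.00368) and *Slc10a2* (1.20 ± 0.19, adjusted p = 0.00682), all by limma. Mtg16-null replicate 4 has no partner of its number and adds nothing to that fit. The labels do not state that the numbers pair mice, and the pairing was inferred from the values of this same comparison. *Apoa1*, under the filter, measured 7.24, 2.76, 2.72 and 9.47 in Mtg16-null libraries and 0 in all 3 WT libraries.

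In the P209T colony after DSS, none of 7 genes was called by limma, against 0% of all 13648 genes. An unadjusted p under 0.05 by limma was held by 3 of the 7 and by 8.77% of all genes (1197). Of the 7, 0 were called by edgeR and 1 by DESeq2, whose larger number of calls over all genes is given at the end. *Fabp6* measured 272.6, 238.9 and 229.9 in P209T and 795.4, 820.3 and 697.8 in WT libraries, again without overlap. Its log2 fold change was −1.64 ± 0.20 (unadjusted p = 0.000104, adjusted p = 0.122, limma), and DESeq2 on recovered reads gave an adjusted p of 1.75e-11. *Slc51a* gave 50.4, 12.9 and 41.0 against 7.76, 10.03 and 6.89 (1.77 ± 0.56, adjusted p = 0.401 by limma), and *Slc10a2* 133.1, 477.9 and 71.7 against 24.0, 17.8 and 94.8 (2.23 ± 0.87, adjusted p = 0.531 by limma). With single libraries left out, the log2 value of *Slc10a2* ran from 1.472 to 2.945. *Fabp2* (4200, 2321 and 2192 against 1848, 2131 and 1116) and *Abca12* (146.0, 247.5 and 24.2 against 37.4, 44.6 and 16.4) had log2 fold changes of 0.76 ± 0.35 and 1.64 ± 0.88.

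**Figure D4:**
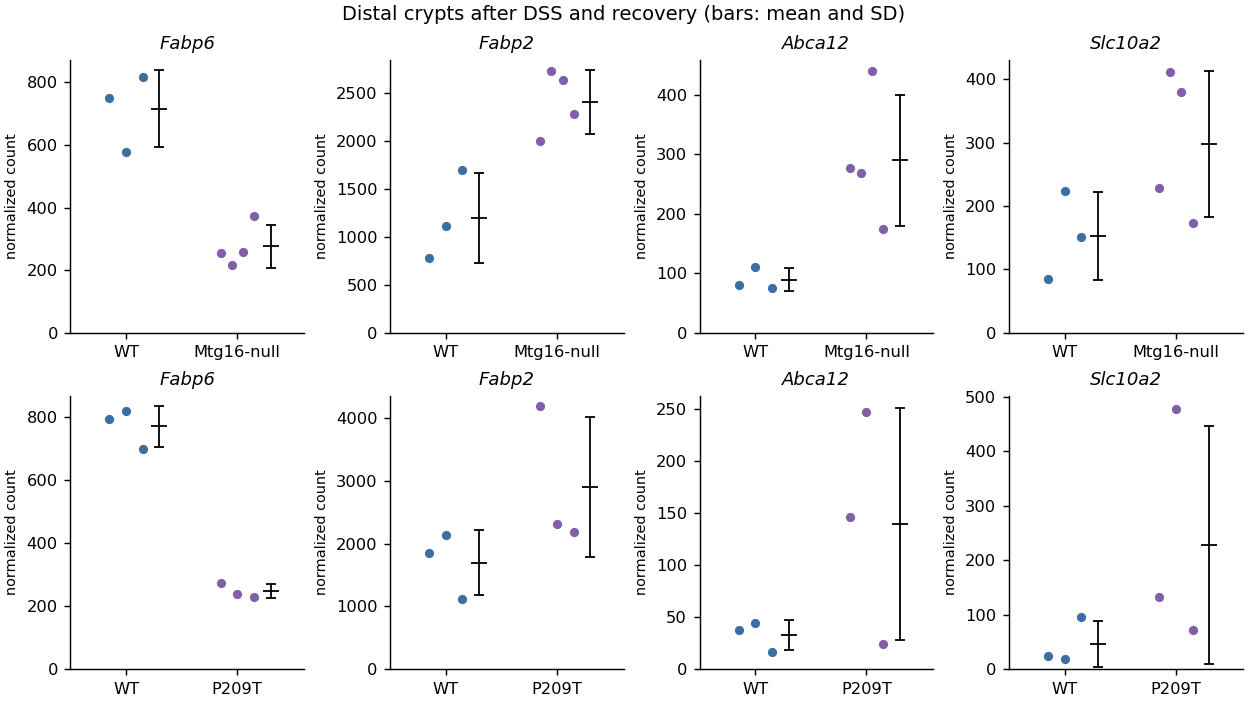
Normalized counts of *Fabp6*, *Fabp2*, *Abca12* and *Slc10a2* in distal crypts after DSS, 1 point a library, Mtg16-null against WT above and P209T against WT below, with mean and SD as bars. The mutant libraries of both colonies lie below all WT libraries for *Fabp6*, and those of *Fabp2* lie above all WT libraries.

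Values of other genes stood beside these. Of the 279 genes that separate the WT segments, 47 to 66 lay on the proximal side in Mtg16-null libraries after DSS and 15 to 24 in their WT libraries, and 38 to 81 in P209T against 9 to 32 in WT libraries. Myeloid markers summed to 115.3 to 370.4 CPM in Mtg16-null against 24.7 to 78.4 CPM in WT libraries, and to 42.6 to 55.2 in P209T against 12.2 to 27.8 CPM. Adipocyte markers were also higher in both mutants, at 2.16 to 4.17 against 1.11 to 1.35 CPM and at 3.40 to 5.04 against 1.82 to 3.08 CPM, and the other 10 lists overlapped in the Mtg16-null colony. The adipocyte list includes *Cidec*, whose part in these sums is not given here. In the P209T colony 4 more lists did not overlap. Colonocyte markers were 3324 to 4619 CPM in P209T against 4786 to 6064 CPM in WT libraries, hepatocyte markers 17.4 to 30.4 against 34.2 to 39.7 CPM, T cell markers 6.32 to 7.25 against 7.45 to 7.96 CPM and plasma and B cell markers 14.6 to 15.6 against 4.15 to 7.80 CPM. Summed Paneth markers were 9.01 to 15.3 CPM in Mtg16-null and 8.49 to 16.2 CPM in P209T libraries after DSS, within or near the WT ranges of 4.51 to 18.4 and 6.29 to 10.4 CPM. Their part in the differences of *Fabp6*, *Fabp2*, *Abca12*, *Slc51a* and *Slc10a2* was not tested.

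The effects of genotype were set against each other between segments and between states. The difference of the log2 fold changes of a pair of limma fits was tested over its pooled standard error, and none of the 7, 6, 7 and 6 genes with both estimates was called in the 4 differences, in the order given here, with 1, 1, 0 and 2 of them at an unadjusted p under 0.05, against 3.85%, 4.45%, 3.37% and 10.8% of all genes. *Apoa4* was not tested in any of the 4, and *Fabp1* and *Apoa1* only with no filter, where neither was called. The Mtg16-null effect, proximal minus distal, gave 0.0372% of all genes called, and the P209T effect, proximal minus distal, gave 0.0229%. The Mtg16-null effect after DSS minus that at baseline gave 0.00738%, and the P209T effect after DSS minus baseline gave 0.234%. The 1 gene under 0.05 in the first difference was *Slc10a2*, at −2.24 ± 1.04 (unadjusted p = 0.0485 from the limma fits). Without Mtg16-null distal replicate 2 it was −1.21 ± 0.63 (unadjusted p = 0.073 from the limma fits). Then 0 of 5 genes were under 0.05, against 3.99% of all genes. *Fabp6* under P209T differed by −2.03 ± 0.47 between DSS and baseline (−1.64 and 0.39, adjusted p = 0.113 from the limma fits) and *Slc10a2* by 3.19 ± 0.93 (2.23 and −0.96, adjusted p = 0.229). *Slc10a2* under P209T differed by 1.17 ± 0.37 between proximal and distal crypts (adjusted p = 0.67 from the limma fits), and by 0.996 ± 0.373 without the ileal-marked library (adjusted p = 1.0). Without Mtg16-null distal replicate 2, the Mtg16-null effect on *Fabp2* differed by 1.16 ± 0.29 between DSS and baseline (adjusted p = 0.114 from the limma fits), against 0.16 ± 0.88 with it, and that on *Fabp6* by −1.97 ± 0.74 (unadjusted p = 0.0157, adjusted p = 0.495 from the limma fits), against −1.11 with it. These were the 2 of the 5 genes then tested with an unadjusted p under 0.05, against 6.66% of all genes.

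AOM/DSS tumors of P209T and WT mice did not separate. None of 6 genes was called by limma, against 0% of all 15900 genes (392 with an unadjusted p under 0.05), and 0 by edgeR and by DESeq2. *Slc10a2* measured 302.0, 394.4 and 311.2 in P209T and 372.9, 331.9 and 364.8 in WT tumors, and the log2 fold changes of the 6 genes lay between −0.98 (*Abca12*) and 0.31 (*Fabp6*), all with overlapping groups.

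Set beside WT distal crypts of the same colony in CPM, the 6 tumors held less of 4 genes, and 16.1% of all genes with a mean of at least 0.2 CPM were lower in every tumor than in every crypt library. *Slc51b* was 1.23 to 7.57 CPM in tumors against 33.3 to 38.1 CPM, *Fabp2* 1.19 to 5.03 against 22.1 to 32.7 CPM, *Fabp6* 0.276 to 2.19 against 10.4 to 15.4 CPM and *Nr1h4* 19.7 to 33.8 against 71.2 to 87.4 CPM. *Slc10a2* was 6.23 to 8.12 CPM in tumors against 4.47 to 5.34 CPM in these crypts. Tumors also held 2634 to 3607 CPM of summed fibroblast markers, against 0.947 to 2.38 CPM in the crypts, and 1102 to 2616 CPM of Paneth markers against 3.63 to 6.55 CPM. Colonocyte markers summed to 946.0 to 1479 CPM in tumors against 5196 to 6355 CPM, and small intestinal enterocyte markers to 508 to 777 CPM against 1690 to 1759 CPM. The sum of epithelial markers was 11123 to 16780 CPM in tumors against 19689 to 21496 CPM in the crypts. The part of cell content in these levels was not tested, and no test was made across tables.

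**Figure D5:**
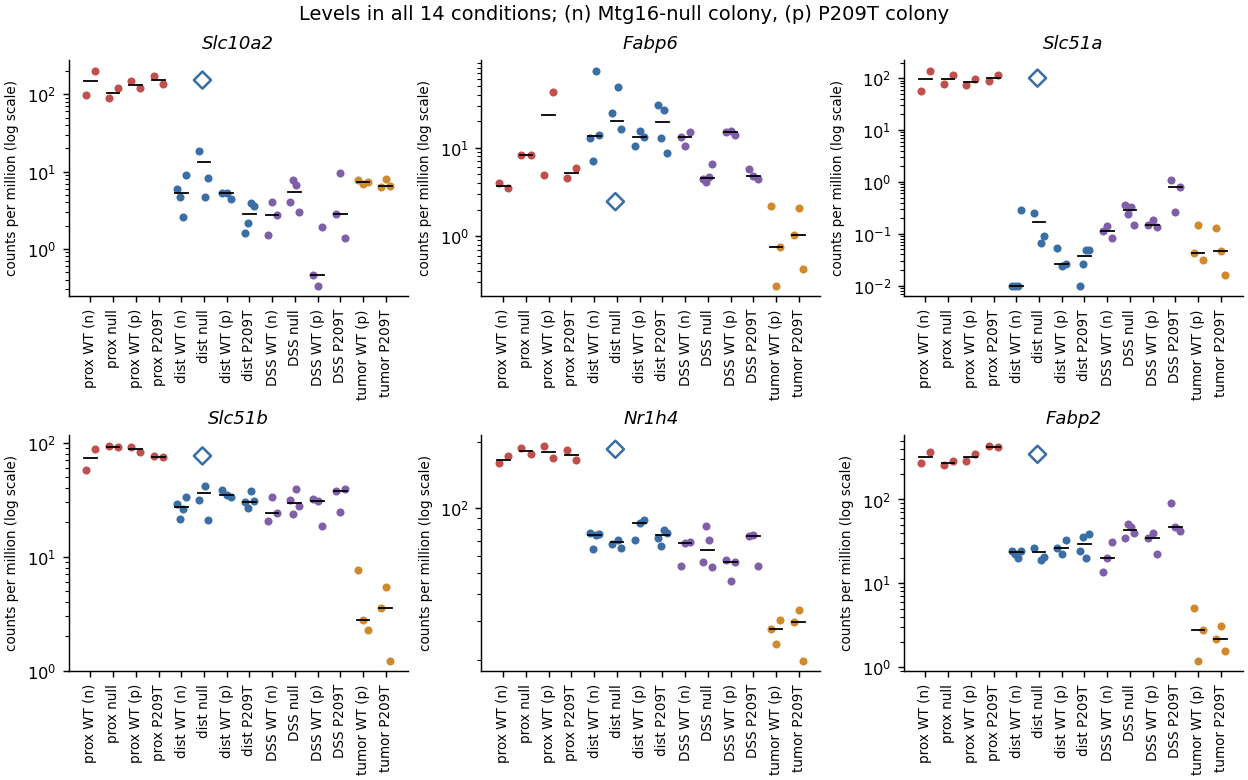
CPM (log scale) of 6 genes in all 42 libraries by condition, proximal crypts in red, untreated distal crypts in blue, distal crypts after DSS in purple and tumors in orange, with the median as a line, Mtg16-null distal replicate 2 as a diamond and values under 0.01 drawn at 0.01. Proximal libraries lie highest for *Slc10a2*, *Slc51a*, *Slc51b*, *Nr1h4* and *Fabp2*, together with the diamond, and tumors lie lowest for *Slc51b*, *Nr1h4*, *Fabp2* and *Fabp6*.

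Ordered by level, *Nr1h4* ran from 159.7 to 192.4 CPM over the 8 proximal libraries, from 64.6 to 87.4 CPM over untreated distal crypts without Mtg16-null replicate 2, from 45.8 to 82.6 CPM after DSS and from 19.7 to 33.8 CPM in tumors. The first of these ranges stood clear of the rest, the ranges of untreated and DSS-treated distal crypts overlapped, and that of tumors lay below both. *Fabp2* ran from 260 to 435.5 CPM in proximal, 19.2 to 39.2 CPM in untreated distal without that library, 13.6 to 89.6 CPM in DSS-treated distal crypts and 1.19 to 5.03 CPM in tumors. *Fabp1* was at 0 or not listed in 22 of 42 libraries and at most 0.202 CPM, and *Apoa4* was at 0 or not listed in 39 of 42.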

How the data were processed

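The deposited signal values are normalized counts. Per the labels and the study's methods, the authors trimmed reads with fastp (0.20.0), quantified them with Salmon (1.3.0) against GENCODE M21 (GRCm38), dropped genes with almost no counts and divided estimated reads by DESeq2 (1.26.0) size factors within each of 9 tables. The columns of the authors' own comparisons (fold changes and p-values) were not used. Recovered whole reads of 38 libraries were used (100% of values within 0.1 of a whole read), with a median depth of 46659625 reads. Those of the 4 mutant proximal libraries were set aside, so the proximal comparisons of genotype have no count model.

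Groups were compared with limma (3.58.1, R 4.3.3) on log2 (normalized count + 1) for genes with a mean of at least 10, with Benjamini-Hochberg adjustment over all genes tested in a table and a threshold of 0.05. Between WT segments, means of the 10 genes were also compared by exact permutation. Elsewhere genes under the filter were not tested. Levels across tables are CPM. The share of all genes without overlap between groups was counted only for the baseline segments and for tumors against crypts. In groups this small, many genes or marker sums can be without overlap by chance. Alternatives were a pseudocount of 0.1, no filter, prefix, colony and leave-one-out fits, and count models of the recovered reads with edgeR (4.0.16) or DESeq2 (1.42.0). The fitting was tested on simulated data. Named pathway genes are up to 3 called genes per list and direction with the largest change and a mean of at least 100. Some genes that this rule or the likeness rule names are not reported here. The genes, lists and tests were chosen with earlier results of these data known. p-values measure the spread between these libraries, which may be technical.

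Same-numbered Mtg16-null and WT libraries after DSS deviated together (correlations of 0.554, 0.46 and 0.317), so the replicate number was taken to pair them, and 1 Mtg16-null library has no partner. The labels do not state this pairing. It was inferred from the same values that the block then tested, so the p-values with the block are no independent evidence. RefSeq promoters and gene positions matched 10 of 10 genes.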

Additional observations from a re-analysis of the deposited data

Results flagged for a closer look

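Of 55 groups of 4 to 10 libraries examined over these genes, 18 held a library far from the others by Dixon's criterion, which chance alone meets in about 1 in 20 groups. A single read among libraries at 0 is enough to meet it.

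In the WT table, the ileal-marked proximal library stood apart with a *Fabp6* of 1927 (next 230.6), an *Apoa1* of 548.8 (next 7.17) and an *Apoa4* of 45.41 (next 0). WT distal replicate 3 of the Mtg16-null colony stood apart with a *Fabp6* of 3229 (next 675), and of 3320 in the table of Mtg16-null distal crypts. WT distal replicate 4 of that colony stood apart with a *Slc51a* of 13.23 (next 2.22) and a *Fabp1* of 1.018 (next 0), and in the Mtg16-null table with a *Slc51a* of 13.54, a *Fabp1* of 1.041 and an *Abca12* of 22.91 (next 4.54). *Apoa4* measured 1.127 in WT distal replicate 2 and 0 in the other distal libraries.

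The library labelled Mtg16-null distal replicate 2 stood apart from the other 3 of its group in 6 genes. It measured 4564 for *Slc51a* (next 11.6), 6957 for *Slc10a2* (next 849.5), 15750 for *Fabp2* (next 1191), 8458 for *Nr1h4* (next 3118), 9746 for *Abca12* (next 22.0) and 2.093 for *Fabp1* (next 0). In P209T distal crypts, replicate 4 measured 58.15 for *Abca12* (next 8.47).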

How the results depend on the processing

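The 6 genes lower in WT distal crypts kept direction and call in every alternative run, and leaving out each library gave 6 to 7 genes called. *Fabp6* between WT segments reversed within the P209T colony (−0.253) and by DESeq2 (−0.218), and *Apoa4* reversed without the ileal-marked library (a mean difference of 0.161). In Mtg16-null distal crypts, prefix 4149 alone, which leaves out replicate 2, reversed *Slc51b* (−0.044), *Fabp2* (−0.186) and *Nr1h4* (−0.185). Leaving out single libraries moved *Fabp2* from −0.086 to 1.322, *Fabp6* from −0.827 to 0.582 and *Nr1h4* from −0.12 to 0.378 there, and in P209T proximal crypts *Fabp6* from −2.994 to 0.048 and *Nr1h4* from −0.159 to 0.075. The cause was not tested.

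After DSS, the Mtg16-null comparison called 4 genes with the replicate block, 3 by DESeq2 and 0 to 1 with libraries left out, against 1. The P209T comparison called 1 by DESeq2, against 0. WT mice after DSS gave 1 with the replicate block and 0 to 4 with libraries left out, against 2. The replicate block changed no other count of these genes called. Outside the Mtg16-null DSS comparison, the numbers were not taken to pair samples, with correlations of deviations between −0.766 and 0.369. In distal baseline crypts of the Mtg16-null colony, libraries of the same number also share a prefix.

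Over all genes, the WT segments gave 5824 calls, against 3189 with the prefix as a covariate, 2014 within prefix 4149, 3540 within the Mtg16-null colony and 2179 at a change of at least 2-fold. Mtg16-null distal crypts gave 33, against 200 by DESeq2, 143 without replicate 2, 8 with the prefix as a covariate, 2 and 0 within prefixes 4149 and 5094, and 1 with the replicate block. Mtg16-null proximal crypts gave 9 and P209T proximal crypts 32, against 32 and 151 with the replicate block, and P209T proximal crypts gave 2 with no filter. P209T distal crypts gave 5, against 53 by DESeq2 and 0 with the block. After DSS, Mtg16-null gave 91, against 1266 with the block and 727 by DESeq2, P209T 0 against 334 by DESeq2, and WT 4833 against 2679 with the block, 1 without WT baseline replicate 2 and 9086 without DSS replicate 3. Tumors gave 0, against 24 by DESeq2 and 1 with no filter. The difference of Mtg16-null effects between segments gave 5 calls, against 3 with no filter or a pseudocount of 0.1 and 9 without Mtg16-null distal replicate 2, and that between DSS and baseline gave 1, against 4 with no filter and 49 without that library. The alternatives to the 4 differences were added after seeing the data. In WT distal crypts *Slc51a* rested on 17 reads and *Fabp1* on 1, so small differences between distal groups were not detectable at this depth.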
